A study of Homo sapiens with 9 samples.

Results

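AKR1D1 and 9 other genes of bile acid synthesis and its control were followed in hepatoma cells that had received an siRNA against YAP. The 10 genes were AKR1D1, CYP7A1, CYP7B1, CYP8B1, CYP27A1, HSD3B7, AMACR, BAAT, SLC27A5 and NR1H4, and a gene was measured where a probe set of the array was annotated to it alone. This held for 7 of the 10 and for 18417 genes in all. AMACR shared its probe set with a read-through gene and is given no value, and HSD3B7 and NR1H4 were not analysed here. AKR1D1 was chosen by its values after YAP siRNA, which lay above those of both controls, so its differences between YAP siRNA and the controls are given as a description with no test. The others joined it through their roles in the pathway.

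The samples formed 3 groups of 3, all from Hep3B, a human hepatocellular carcinoma cell line: cells transfected with an siRNA specific for YAP, cells transfected with a nonsense siRNA, and untreated cells. Transfected cells received their siRNA with Oligofectamine after 24 h of growth, and RNA was taken after another 24 h. For untreated cells 24 h of growth and no later time are recorded. Whether their RNA was taken at the same time is not known. Total RNA was labelled with biotin and hybridised to Affymetrix gene arrays, and values are log2 array signals. Sample titles start with HUH, but Hep3B stands in the cell line and description labels and is the name used here. How many YAP siRNAs were used is not stated. Nor is it stated whether replicates were separate cultures, so p-values measure only the spread between these samples, which may be technical. The arrays measured RNA of whole cultures, and a change in the share of cells that hold a transcript cannot be told apart from a change in its amount per cell.

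The liver turns cholesterol into bile acids along a classical pathway, opened by the hydroxylase CYP7A1, and an alternative pathway, opened by the mitochondrial hydroxylase CYP27A1 and continued by CYP7B1. Both need HSD3B7 and AKR1D1, the reductase that saturates the A ring of the sterol and gives bile acids their bent shape. CYP8B1 sets the share of cholic acid, AMACR serves the shortening of the side chain, and SLC27A5 and BAAT join the finished acid to coenzyme A and then to glycine or taurine. NR1H4 encodes FXR, the nuclear receptor that senses bile acids and lowers their synthesis. The Hippo pathway restrains YAP, the product of YAP1, a coactivator that reaches DNA through TEAD factors.

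The stretches just upstream of AKR1D1 and CYP27A1 are shown because AKR1D1 leads the set and CYP27A1 was the member beside it whose rise after YAP siRNA against nonsense siRNA passed the test. Each is the 250 bases before the RefSeq gene start (GRCh38.p14), at chr7:138076209-138076458 for AKR1D1 and chr2:218781897-218782146 for CYP27A1, both on the plus strand, and capitals mark matches to the motifs searched.
AKR1D1: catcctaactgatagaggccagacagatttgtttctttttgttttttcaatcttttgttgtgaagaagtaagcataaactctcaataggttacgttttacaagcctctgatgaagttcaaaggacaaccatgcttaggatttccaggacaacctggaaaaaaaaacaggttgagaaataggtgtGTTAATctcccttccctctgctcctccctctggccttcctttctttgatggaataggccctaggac
CYP27A1: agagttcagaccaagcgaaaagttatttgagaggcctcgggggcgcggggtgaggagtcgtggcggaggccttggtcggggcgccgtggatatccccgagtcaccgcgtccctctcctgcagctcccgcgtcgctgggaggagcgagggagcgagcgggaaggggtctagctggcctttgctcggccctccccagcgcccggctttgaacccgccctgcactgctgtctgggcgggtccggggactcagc
Motifs searched on both strands were GGAATG, the core of the TEAD site, GTTAAT, one arm of the HNF1 site, AGGTCA, the hexamer bound by many nuclear receptors, and CAAAGTCCA, a site of HNF4A. The AKR1D1 window held 1 match, GTTAAT starting 66 bases before the gene start, and the CYP27A1 window held 0, so no matches overlapped. Among 35116 RefSeq windows of this length, 11.9% held GGAATG, 6.23% GTTAAT, 12.1% AGGTCA and 0.325% CAAAGTCCA. Bases G and C made up 40.8% of the AKR1D1 window and 68.8% of the CYP27A1 window, with a median of 58.0% over all windows. A match is only a match of letters, and a missing one says only that these letters are not in the window.

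The siRNA lowered its target on all 3 arrays. YAP1 gave 7.54, 7.52 and 7.48 after YAP siRNA, 8.66, 8.75 and 8.68 after nonsense siRNA, and 8.78, 8.62 and 8.69 in untreated cells, and a two-sided exact permutation test of the YAP siRNA arrays against the 6 controls gave p = 0.0119, the smallest that these groups allow. Albumin (ALB) and alpha-fetoprotein (AFP), which mark hepatoma cells, averaged 11.5 and 12.4 over the 9 arrays, far above the median gene at 7.31. On the first principal component, which held 35.3% of the variance between arrays, 3 arrays lay farther towards the untreated side than the others of their group: YAP siRNA replicate 3 (0.39 against -0.13 and -0.18), nonsense siRNA replicate 2 (0.07 against -0.46 and -0.55) and untreated replicate 3 (0.42 against 0.27 and 0.16). For the members and for the list genes named as passing, a result is also given without these 3 arrays where that changes its call. Leaving these arrays out raised the number of all genes passing in every comparison. It went from 834 to 1287 for YAP siRNA against nonsense siRNA, from 569 to 1560 against untreated cells, and from 113 to 2319 between the controls.

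AKR1D1 (probe set 8136459) had its highest signals after YAP siRNA. It gave 8.41, 8.42 and 8.33 after YAP siRNA, against 7.88, 7.86 and 7.97 after nonsense siRNA and 7.61, 7.71 and 7.80 in untreated cells. The 3 groups formed 3 separate steps with no overlap, with nonsense siRNA between the others. The group means were 8.39 ± 0.05 after YAP siRNA, 7.90 ± 0.06 after nonsense siRNA and 7.70 ± 0.09 in untreated cells (SD, n = 3 each). AKR1D1 was 0.49 higher on the log2 scale after YAP siRNA than after nonsense siRNA (SE 0.0590), which is 1.40 times the signal. Against untreated cells it was 0.68 higher (SE 0.0590), or 1.60 times the signal. These differences were what the gene was chosen for, and in 10.2% of all genes the YAP siRNA arrays lay above all untreated arrays.

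The choice set no direction for the step between the controls, and this step was tested. The values of both controls did enter the choice, so its p-values are not wholly free of it. After nonsense siRNA AKR1D1 differed from untreated cells by 0.20 on the log2 scale (SE 0.0590, 95% interval 0.07 to 0.32), and it did not pass in limma's moderated test with Benjamini-Hochberg adjustment over all genes (adjusted p = 0.120). Groups without overlap, with nonsense siRNA higher, were seen in 8.90% of all genes in this comparison. The order YAP siRNA, nonsense siRNA, untreated with no overlap was seen in 0.462% of all genes. The choice of AKR1D1 fixed the upper step of that order, so this share does not measure how rare it is. YAP siRNA lay above all 6 control arrays in 791 genes, and 85 of these had the full order. Without the 3 arrays named above the step was 0.26 (adjusted p = 0.0113), an alternative chosen after the data were seen. In that setting 2319 of all genes passed between the controls, against 113 with all arrays. The arrays left out held the lowest AKR1D1 signal after nonsense siRNA (7.86) and the highest in untreated cells (7.80), so leaving them out widened the step.

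**Figure D1:**
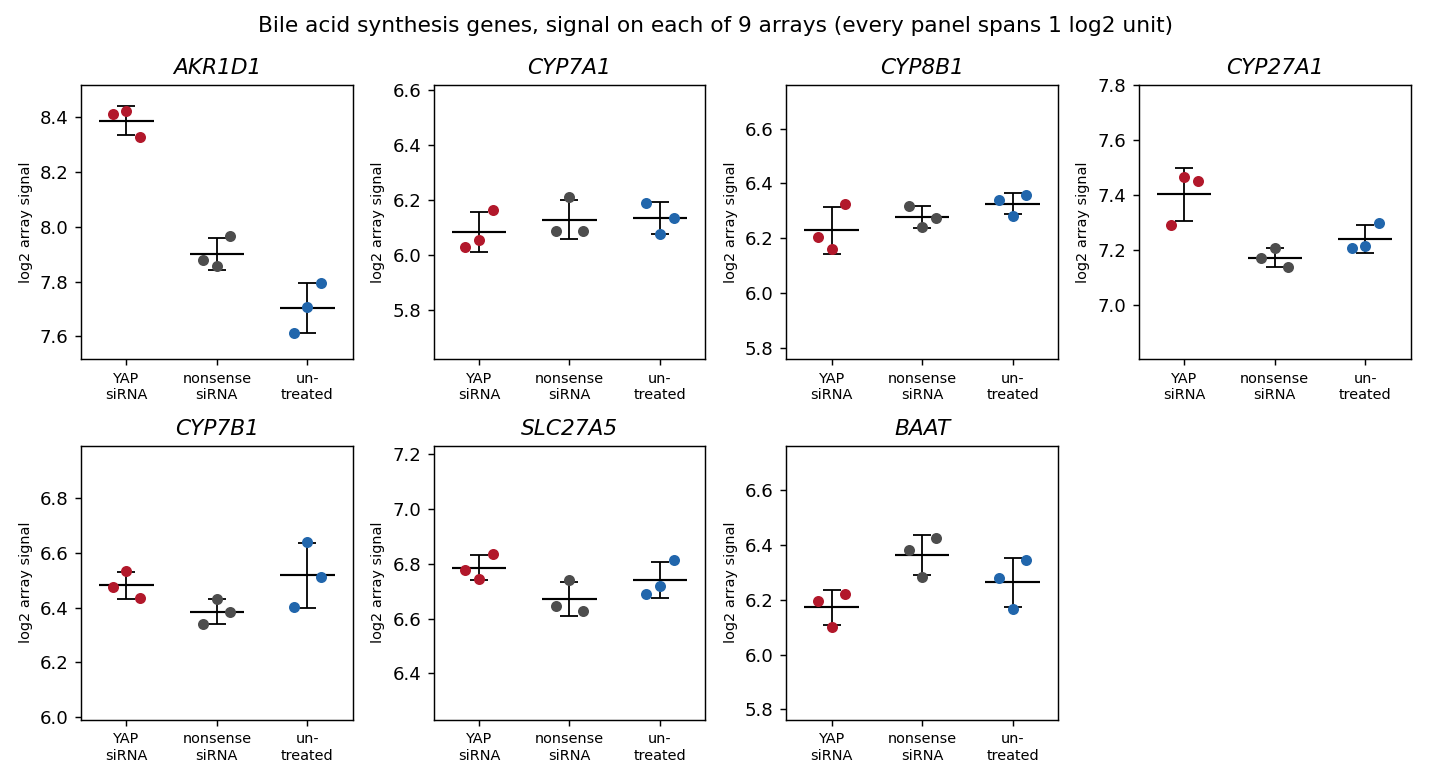
Log2 array signal (vertical axis, 1 log2 unit in every panel) of the 7 measured bile acid synthesis genes on each array of YAP siRNA, nonsense siRNA and untreated cells. Points are arrays, long lines are group means and bars are SD (n = 3). AKR1D1 forms 3 separate steps, from 8.33 to 8.42, from 7.86 to 7.97 and from 7.61 to 7.80, and in the other panels the groups lie closer together.

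CYP7A1 and CYP8B1, the hydroxylases of the classical pathway, did not follow AKR1D1. CYP7A1, its rate-limiting enzyme (probe set 8150920), gave 6.03, 6.05 and 6.16 after YAP siRNA, against 6.09, 6.21 and 6.09 after nonsense siRNA and 6.19, 6.08 and 6.14 in untreated cells. The ranges of the 3 groups overlapped. It differed by -0.05 between YAP siRNA and nonsense siRNA (limma adjusted p = 0.806), with a 95% interval of -0.17 to 0.08, and by -0.05 between YAP siRNA and untreated cells (adjusted p = 0.711). CYP8B1 (probe set 8086457) gave 6.20, 6.16 and 6.32 after YAP siRNA, against 6.32, 6.24 and 6.27 after nonsense siRNA and 6.34, 6.28 and 6.36 in untreated cells. Its groups overlapped too, and the differences were -0.05 against nonsense siRNA (limma adjusted p = 0.788, 95% interval -0.17 to 0.07) and -0.10 against untreated cells (adjusted p = 0.423, 95% interval -0.22 to 0.02).

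CYP27A1, which opens the alternative pathway (probe set 8048432), was the member besides AKR1D1 that rose after YAP siRNA against nonsense siRNA. It gave 7.29, 7.46 and 7.45 after YAP siRNA, against 7.17, 7.21 and 7.14 after nonsense siRNA and 7.21, 7.21 and 7.30 in untreated cells. All 3 YAP siRNA arrays lay above the nonsense siRNA arrays, while replicate 1 lay within the range of untreated cells. The rise against nonsense siRNA was 0.23 (SE 0.0579, limma adjusted p = 0.0317), or 1.17 times the signal. Against untreated cells the difference was 0.16 (SE 0.0579, limma adjusted p = 0.172, 95% interval 0.04 to 0.29). Leaving out 1 array ended the call against nonsense siRNA in 4 cases, namely YAP siRNA replicate 2 (adjusted p = 0.143) or 3 (0.116) and nonsense siRNA replicate 1 (0.122) or 3 (0.125). It was also lost in a test of every probe set (0.108) and with only the 6 arrays of the comparison (0.0518).

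CYP7B1, the next hydroxylase of the alternative pathway (probe set 8151056), gave 6.48, 6.53 and 6.44 after YAP siRNA, against 6.34, 6.43 and 6.38 after nonsense siRNA and 6.40, 6.64 and 6.51 in untreated cells. The YAP siRNA arrays lay just above those of nonsense siRNA and inside the spread of untreated cells. It differed by 0.10 from nonsense siRNA (limma adjusted p = 0.531, 95% interval -0.04 to 0.23) and by -0.04 from untreated cells (adjusted p = 0.818).

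The 2 conjugation genes differed in opposite directions from nonsense siRNA, and neither passed. SLC27A5, the bile acid coenzyme A ligase (probe set 8039779), gave 6.78, 6.74 and 6.83 after YAP siRNA, against 6.65, 6.74 and 6.63 after nonsense siRNA and 6.69, 6.72 and 6.81 in untreated cells. Its YAP siRNA arrays lay just above those of nonsense siRNA and overlapped those of untreated cells. It differed by 0.11 from nonsense siRNA (limma adjusted p = 0.346, 95% interval -0.01 to 0.23) and by 0.04 from untreated cells (adjusted p = 0.747). BAAT, which transfers the acid to glycine or taurine (probe set 8162870), gave 6.20, 6.10 and 6.22 after YAP siRNA, against 6.38, 6.28 and 6.43 after nonsense siRNA and 6.28, 6.17 and 6.34 in untreated cells. All 3 YAP siRNA arrays of BAAT lay below the nonsense siRNA arrays and overlapped those of untreated cells. Its difference from nonsense siRNA was -0.19 (limma adjusted p = 0.101, 95% interval -0.32 to -0.06), and from untreated cells -0.09 (adjusted p = 0.500). Without nonsense siRNA replicate 2 BAAT passed against nonsense siRNA, at -0.23 (adjusted p = 0.0421), and also without the 3 arrays that stood apart, at -0.26 (adjusted p = 0.0194).

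Of the 6 members measured beside AKR1D1, 1 was higher and 0 were lower by limma after YAP siRNA against nonsense siRNA, where 4.53% of all genes passed, 1.92% higher and 2.61% lower. An unadjusted p under 0.05 was seen in 2 of the 6 (CYP27A1 and BAAT), against 15.8% of all genes. Their median difference was 0.02, against 0.01 over all genes. The arrays of the groups did not overlap in 4 of the 6, with 3 higher after YAP siRNA and 1 lower, and 20.2% of all genes had no overlap in this comparison, 11.5% with YAP siRNA higher. Against untreated cells 0 of the 6 passed by limma, 1 had an unadjusted p under 0.05 (CYP27A1, against 15.8% of all genes) and 0 were free of overlap, where 3.09% of all genes passed, 1.63% higher and 1.46% lower, and 20.5% had no overlap. The median difference was -0.04, against -0.01 over all genes. Between nonsense siRNA and untreated cells 0 of the 6 passed by limma, 1 had an unadjusted p under 0.05 (CYP7B1, at -0.13 with an adjusted p of 0.254, against 19.5% of all genes) and 0 were free of overlap, where 0.614% of all genes passed, 0.337% higher and 0.277% lower, and 22.7% had no overlap. That median was -0.06, against -0.02 over all genes. Both YAP siRNA comparisons share the YAP siRNA arrays, and the 3 comparisons share their controls in pairs. The signals of CYP7A1, CYP7B1, CYP8B1 and BAAT lay below 6.63, the lower quartile over all genes, and no detection calls were given with the values, so for these 4 of 7 measured members it is not known whether the transcript was present.

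**Figure D2:**
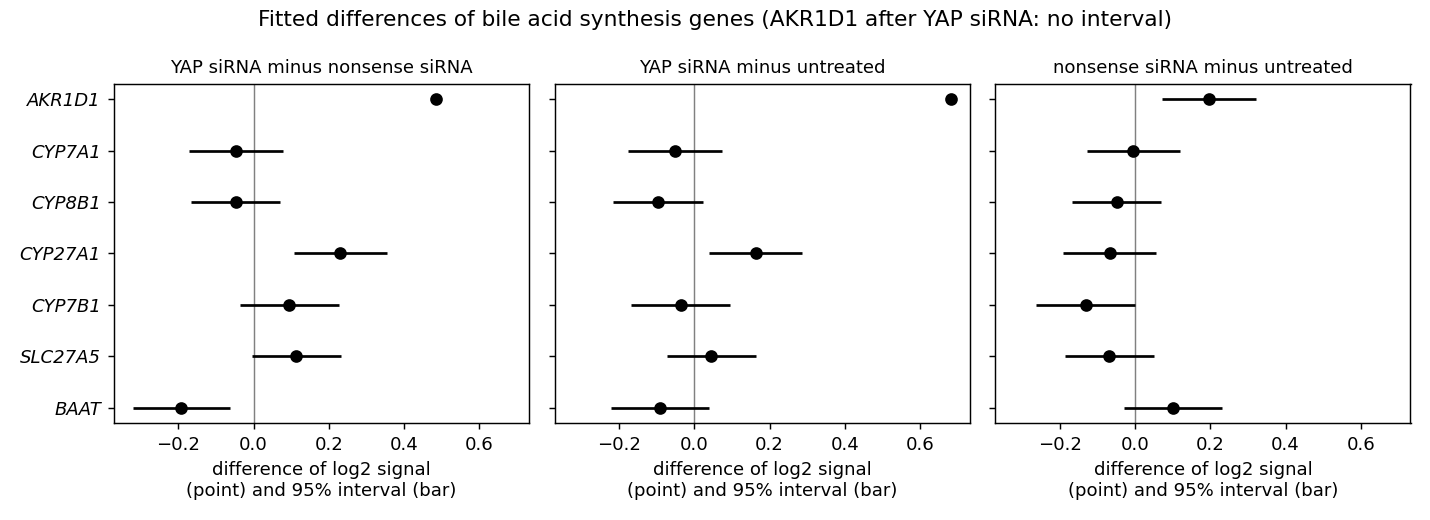
Fitted difference of log2 signal (horizontal axis) of the 7 measured members in the 3 comparisons, with 95% intervals of the fit as bars except for AKR1D1 after YAP siRNA, which was chosen on these values. AKR1D1 lies at 0.49 and 0.68 in the YAP siRNA comparisons, CYP27A1 at 0.23 and 0.16, and the other 5 lie between -0.19 and 0.11 in them.

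Among the genes that act next to the members, UGT2B4 rose after YAP siRNA against both controls, as 0.695% of all genes did. It encodes a glucuronosyltransferase that conjugates bile acids. It gave 8.38, 8.35 and 8.13 after YAP siRNA, against 7.71, 7.74 and 7.87 after nonsense siRNA and 7.41, 7.54 and 7.68 in untreated cells. Its YAP siRNA arrays lay above all 6 control arrays, a pattern that 4.29% of all genes showed. The rise of UGT2B4 was 0.51 against nonsense siRNA (SE 0.0773, limma adjusted p = 0.000906) and 0.74 against untreated cells (SE 0.0773, adjusted p = 7.45e-05), and it differed by 0.23 between nonsense siRNA and untreated cells (adjusted p = 0.150), which passed without the 3 arrays that stood apart (0.00912). Without those 3 arrays 2319 of all genes passed between the controls. UGT2B4 was listed with earlier results of these data known, so its p-values are no independent support. Probes of the UGT2B genes can share sequence, so the signal cannot be given to UGT2B4 with certainty. Of the 4 measured conjugation and clearance genes UGT2B4 was the 1 that passed. CYP3A4, UGT2B7 and SULT2A1, a sulfotransferase, did not, and SULT2A1 differed from untreated cells by 0.24 after YAP siRNA (adjusted p = 0.156) and by 0.27 after nonsense siRNA (adjusted p = 0.127). Mean signals of CYP3A4 and UGT2B7 lay below 6.63, the lower quartile over all genes, and whether these transcripts were present is not known.

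UGT2B4 also had the pattern most like that of AKR1D1 among the 9209 genes with at least the median signal, with a Pearson r of 0.990 over the 9 arrays. It was followed by ACBD5, a peroxisomal acyl-CoA binding protein gene (0.987), MEP1A, a metalloprotease gene (0.986), THRB, a thyroid hormone receptor gene (0.985), and KLHL13, a ubiquitin ligase adaptor gene (0.980). These values are a description, since the 9 arrays fall into 3 groups whose means set most of them. For deviations from the group means r was 0.944 for UGT2B4, 0.865 for ACBD5, 0.586 for MEP1A, 0.492 for THRB and 0.592 for KLHL13. The deviations enter the r by which these genes were picked, so these values too are only a description. In UGT2B4 as in AKR1D1 the array of YAP siRNA replicate 3 was the lowest of its group, and replicate 3 was the highest of the nonsense siRNA and of the untreated arrays. Their order of groups follows from this choice, and their YAP siRNA means exceeded those of nonsense siRNA by 0.24 to 0.51 and those of untreated cells by 0.33 to 0.74.

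**Figure D3:**
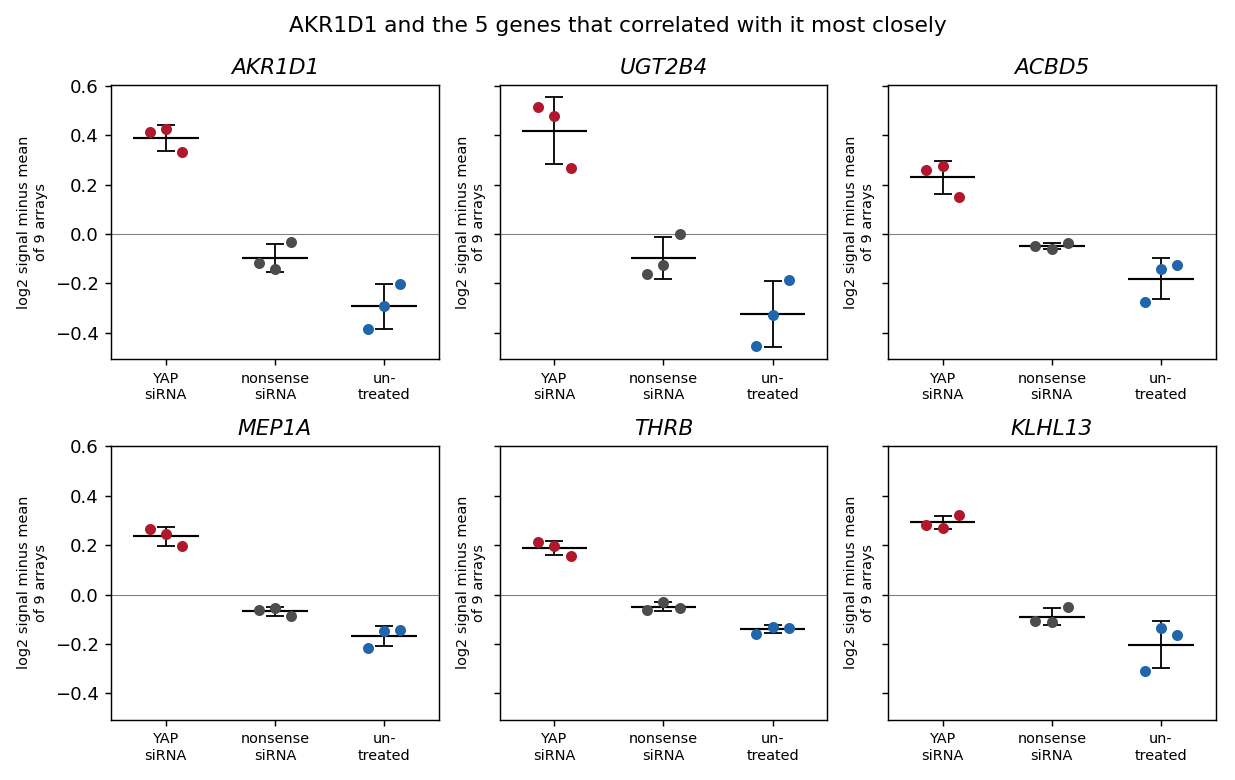
Log2 signal minus the mean of the 9 arrays (vertical axis, shared) for AKR1D1 and the 5 genes that correlated with it most closely, on each array of YAP siRNA, nonsense siRNA and untreated cells. Points are arrays, long lines are group means and bars are SD (n = 3), and every panel has its YAP siRNA arrays on top.

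Of 14 measured regulators of bile acid synthesis, PPARGC1A was the 1 that passed in either YAP siRNA comparison. Of all genes 4.53% passed against nonsense siRNA and 3.09% against untreated cells. For YAP siRNA against nonsense siRNA 6 of the 14 had an unadjusted p under 0.05 (15.8% of all genes) and 7 had groups that did not overlap, 4 higher and 3 lower (20.2% of all genes in either direction). Both counts include MAFG, at -0.18 in its brightest probe set but -0.03 and 0.03 in its others. Against untreated cells 2 of the 14 had an unadjusted p under 0.05 (15.8% of all genes) and 5 had no overlap (20.5% of all genes). PPARGC1A encodes a coactivator of nuclear receptors. It gave 7.05, 7.25 and 7.03 after YAP siRNA, against 6.88, 6.87 and 6.81 after nonsense siRNA and 6.78, 6.81 and 6.78 in untreated cells, with all YAP siRNA arrays above the controls. PPARGC1A rose by 0.26 against nonsense siRNA (limma adjusted p = 0.0214) and by 0.32 against untreated cells (adjusted p = 0.00739). Against nonsense siRNA PPARGC1A no longer passed without YAP siRNA replicate 2 (adjusted p = 0.110) or nonsense siRNA replicate 1 (0.0679) or 3 (0.0944), and in a test of every probe set it was lost against nonsense siRNA (0.0969) and untreated cells (0.0637).

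The other regulators did not pass in any comparison. NR0B2, which encodes SHP, the repressor induced by FXR, gave 7.37, 7.41 and 7.43 after YAP siRNA, against 7.11, 7.34 and 7.24 after nonsense siRNA and 7.41, 7.56 and 7.64 in untreated cells. It was lowest after nonsense siRNA, at 0.17 between YAP siRNA and nonsense siRNA (limma adjusted p = 0.221), -0.13 between YAP siRNA and untreated cells (adjusted p = 0.361) and -0.30 between nonsense siRNA and untreated cells (adjusted p = 0.0570). Between YAP siRNA and nonsense siRNA the hormone gene FGF19 differed by 0.08, its receptor gene FGFR4 by 0.07 and the coreceptor gene KLB by -0.20 (limma adjusted p = 0.148). NR5A2, which encodes LRH-1, an activator of CYP7A1 and CYP8B1, differed by -0.09, and PROX1, whose product represses LRH-1, by -0.22 (adjusted p = 0.101).

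Transport genes did not pass. Of 13 measured, among them ABCB11, the bile salt export pump, SLC10A1, the sodium-dependent uptake carrier, and ABCC2, 0 passed by limma in any comparison, and an unadjusted p under 0.05 was seen in 1 for YAP siRNA against nonsense siRNA (15.8% of all genes), in 5 for YAP siRNA against untreated cells (15.8% of all genes) and in 3 for nonsense siRNA against untreated cells (19.5% of all genes). Their differences from nonsense siRNA after YAP siRNA ranged from -0.04 to 0.16, with a median of 0.02. Mean signals of ABCB11, SLC10A1, SLCO1B1 and SLCO1B3 in this list lay below 6.63, the lower quartile over all genes. Without detection calls it is not known whether these transcripts were present.

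Of 9 other measured enzymes of bile acid synthesis, 0 passed by limma for YAP siRNA against nonsense siRNA and 1 had an unadjusted p under 0.05 (15.8% of all genes). Against untreated cells 1 passed (3.09% of all genes), 4 had an unadjusted p under 0.05 (15.8% of all genes) and 5 had all YAP siRNA arrays above the untreated ones (10.2% of all genes). SLC27A2, an acyl-CoA synthetase that also acts on bile acid precursors, rose against untreated cells by 0.24 (SE 0.0596, limma adjusted p = 0.0372). It gave 6.94, 6.89 and 6.86 after YAP siRNA and 6.96, 6.79 and 6.90 after nonsense siRNA, against 6.57, 6.68 and 6.72 in untreated cells. Both siRNA groups thus lay above untreated cells, by 0.23 for nonsense siRNA (adjusted p = 0.0881), which passed without nonsense siRNA replicate 2 (0.0150) and without the 3 arrays that stood apart (0.00519). Without those 3 arrays 2319 of all genes passed between the controls. For YAP siRNA the call of SLC27A2 was lost without untreated replicate 1 (adjusted p = 0.174), untreated replicate 2 (0.0931), YAP siRNA replicate 1 (0.181) or YAP siRNA replicate 2 (0.122), and in a test of every probe set (0.147). CYP39A1, an oxysterol hydroxylase, differed from untreated cells by 0.29 after YAP siRNA (adjusted p = 0.0637), and AKR1C4, the hepatic partner of AKR1D1 in the next step of the pathway, by 0.08 (adjusted p = 0.560). The mean signal of AKR1C4 lay below 6.63, the lower quartile over all genes, and whether its transcript was present is not known.

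**Figure D4:**
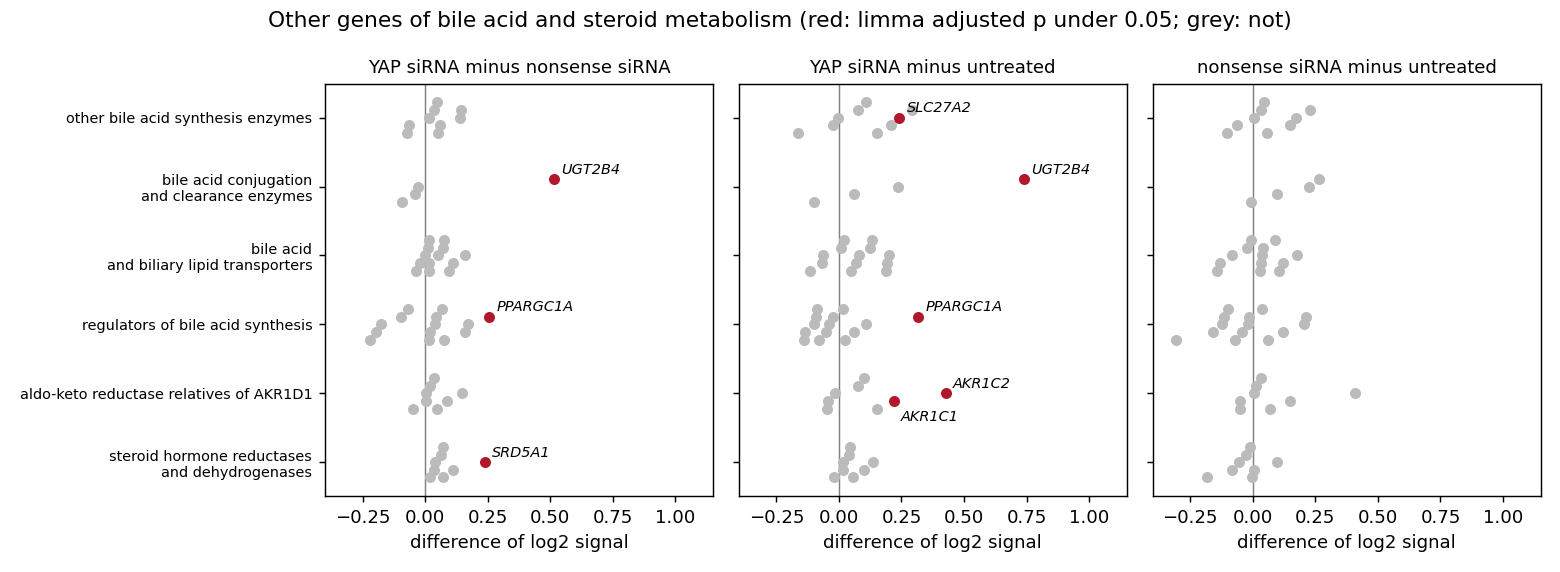
Difference of log2 signal (horizontal axis) of each measured gene in 6 lists around the members, in the 3 comparisons; each point is a gene, and red points with names passed limma at an adjusted p under 0.05. UGT2B4 and PPARGC1A are red in both YAP siRNA comparisons, and no gene is red between nonsense siRNA and untreated cells.

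Of 8 measured aldo-keto reductases related to AKR1D1, 0 passed by limma for YAP siRNA against nonsense siRNA and 1 had an unadjusted p under 0.05 (15.8% of all genes). That was AKR1C1, at 0.15 (adjusted p = 0.156, 95% interval 0.03 to 0.26), and AKR1C1 and AKR7A2 had all YAP siRNA arrays above the nonsense siRNA arrays (11.5% of all genes). The dimmer probe set of AKR1C1 differed by -0.003 in this comparison. Against untreated cells AKR1C2, which reduces steroid ketones, rose by 0.43 (SE 0.0923, limma adjusted p = 0.0173) and AKR1C1 by 0.22 (SE 0.0528, adjusted p = 0.0334). In that comparison 3.09% of all genes passed. AKR1C2 gave 7.70, 7.65 and 7.51 after YAP siRNA and 7.45, 7.72 and 7.64 after nonsense siRNA, against 6.96, 7.25 and 7.37 in untreated cells. The 2 siRNA groups overlapped, and both lay above untreated cells, by 0.41 for nonsense siRNA (adjusted p = 0.0570). The step between the controls passed in 5 alternatives, namely with YAP siRNA replicate 3 (0.0456), nonsense siRNA replicate 2 (0.0375) or the 3 arrays that stood apart (0.00479) left out, with quantile normalization (0.0488) and among genes above the 50th percentile of signal (0.0476). Without those 3 arrays 2319 of all genes passed between the controls. After YAP siRNA AKR1C2 was lost without YAP siRNA replicate 1 (adjusted p = 0.0965) or 2 (0.0859) or untreated replicate 1 (0.0894), and in a test of every probe set (0.179). With 1 array left out AKR1C1 did not pass in 6 of 9 fits, with an adjusted p of up to 0.189 (that without YAP siRNA replicate 2). AKR1C1 was also lost with quantile normalization (0.0522), with the mean of its probe sets (0.137) and in a test of every probe set (0.0919). Its dimmer probe set differed by 0.10 from untreated cells. The AKR1C genes are close in sequence, so their probe signals may not belong to 1 gene.

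Of 8 measured reductases and dehydrogenases of steroid hormones, 1 passed by limma for YAP siRNA against nonsense siRNA (4.53% of all genes). SRD5A1, which reduces the same ring of steroid hormones as AKR1D1 but in the other configuration, rose by 0.24 (SE 0.0633, limma adjusted p = 0.0440). It gave 8.17, 8.20 and 8.16 after YAP siRNA, against 7.81, 8.01 and 7.99 after nonsense siRNA and 8.06, 8.07 and 8.22 in untreated cells. Against untreated cells it differed by 0.06 (adjusted p = 0.709). Between nonsense siRNA and untreated cells SRD5A1 differed by -0.18 (limma adjusted p = 0.156), so its mean was lowest after nonsense siRNA. With 1 array left out SRD5A1 did not pass in 7 of 9 fits, with an adjusted p of up to 0.253 (that without nonsense siRNA replicate 1). It was also lost with array medians equalised (0.0589), with only the 6 arrays of the comparison (0.0511) and in a test of every probe set (0.166). Mean signals of SRD5A2, HSD3B1, HSD3B2, HSD11B1 and HSD17B6 in this list lay below 6.63, the lower quartile over all genes. Whether these transcripts were present is not known.

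Genes known as markers of hepatocytes and of other cells were read beside these results. All samples were of the Hep3B line, so a marker signal is not read here as a share of another cell type. Of 9 hepatocyte markers AHSG was the 1 that rose after YAP siRNA against nonsense siRNA, by 0.29 (limma adjusted p = 0.0162), and of 6 stromal markers COL1A2 rose by 0.43 (adjusted p = 0.000538). In this comparison 4.53% of all genes passed. Earlier results of AHSG and COL1A2 were known when the lists were made, so their p-values are no independent support. AHSG, which encodes the plasma protein fetuin-A, was lost without YAP siRNA replicate 1 (adjusted p = 0.0904) or 2 (0.0824) or nonsense siRNA replicate 1 (0.0715) and in a test of every probe set (0.10), and COL1A2, a collagen gene, passed in every alternative run. Against untreated cells AHSG differed by 0.24 (adjusted p = 0.0561) and COL1A2 by 0.22 (adjusted p = 0.0710), and both passed there without nonsense siRNA replicate 2 (0.0457 and 0.0431). AHSG gained that call in 6 alternatives, down to an adjusted p of 0.0127 without YAP siRNA replicate 3 and 0.0111 without the 3 arrays that stood apart, and COL1A2 in 3. The summed linear signal of the 6 stromal markers was 1106 to 1180 after YAP siRNA, 997 to 1048 after nonsense siRNA and 1121 to 1145 in untreated cells. The sum was lowest after nonsense siRNA, as were the means of COL1A2 (8.58 after YAP siRNA, 8.16 after nonsense siRNA and 8.37 in untreated cells) and of CYP27A1, while AKR1D1 was lowest in untreated cells. This sum includes COL1A2 and is no separate reading. Between YAP siRNA and nonsense siRNA COL1A1 differed by 0.09, PDGFRB by 0.06, COL3A1 by 0.04, DCN by -0.01 and LUM by -0.13, and none of these passed. Of the 5 bile duct, 5 endothelial and 4 leukocyte markers measured 0 passed by limma in any comparison, and 1, 0 and 0 had an unadjusted p under 0.05 for YAP siRNA against nonsense siRNA (15.8% of all genes). Mean signals of all 5 endothelial markers, of the leukocyte marker PTPRC and of LUM and DCN lay below 6.63, the lower quartile over all genes. Whether these transcripts were present is not known. The part of the marker genes in the differences of the members was not tested.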

How the data were processed

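The deposited table held 33297 probe sets on 9 arrays as log2 array signals. The unit was inferred from the values, 1.26 to 13.8, and how the authors corrected, summarised and normalized the arrays is not stated in the labels. No scaling, filter or pseudocount was added. Per the array annotation supplied with the data, 19460 probe sets had 1 gene, 1754 had several and 12083 were not listed. Probe sets of 1 gene gave 18417 genes, and the brightest probe set stood for a gene with several.

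With limma 3.58.1 (R 4.3.3), 1 linear model with the 3 groups was fitted over the 9 arrays (prior degrees of freedom 9.29). Its 3 differences were tested two-sided, with Benjamini-Hochberg adjustment over the 18417 genes and a threshold of 0.05. The fit was tested on simulated data. Intervals are 95% intervals of the fit. Only 3 arrays a group limit the precision.

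The members and lists were chosen with earlier results of these data known, among them those of AKR1D1, UGT2B4, AHSG and COL1A2, so they are no independent support. The rule named all members, YAP1, list genes that passed in a comparison, and the 5 genes most correlated with AKR1D1. CYP3A4, UGT2B7, SULT2A1, NR0B2, FGF19, FGFR4, KLB, NR5A2, PROX1, MAFG, ABCB11, SLC10A1, SLCO1B1, SLCO1B3, ABCC2, CYP39A1, AKR1C4, AKR7A2, SRD5A2, HSD3B1, HSD3B2, HSD11B1, HSD17B6, ALB, AFP, AHSG, COL1A1, COL1A2, COL3A1, PDGFRB, LUM, DCN and PTPRC fall outside it and were chosen after their values were seen. Alternatives were other scalings, filters, probe set rules and variance models, fewer arrays and the replicate number as a block. Promoter windows came from RefSeq. Figures were drawn with Python 3.11.15 and matplotlib 3.10.9.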

Additional observations from a re-analysis of the deposited data

How the results depend on the processing

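The direction of AKR1D1 after YAP siRNA is fixed by its choice and is no sign of stability, and its differences were 0.46 to 0.52 against nonsense siRNA and 0.64 to 0.73 against untreated cells when 1 array was left out. Leaving out YAP siRNA replicate 3, nonsense siRNA replicate 2 and untreated replicate 3 at once, a choice made after the data were seen, it was 0.76 above untreated cells and nonsense siRNA was 0.26 above untreated cells (adjusted p = 0.0113). That step was 0.15 to 0.24 with 1 array left out (adjusted p 0.0514 to 0.365). UGT2B4 passed in both YAP siRNA comparisons in every alternative run (highest adjusted p with 1 array left out, 0.00789 and 0.000999). Its earlier results were known when it was listed, so this is no independent support.

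Of the 6 members beside AKR1D1, the count passing for YAP siRNA against nonsense siRNA was 0 with genes above the 50th percentile of signal, which drops all 6, 0 with all probe sets tested, 0 with the 6 arrays of the comparison, 0 at an adjusted p under 0.01, 2 without the 3 arrays, and 0 to 2 with 1 array left out (2 without nonsense siRNA replicate 2, and 0 without nonsense siRNA replicate 1 or 3 or YAP siRNA replicate 2 or 3). It was 0 in the other comparisons in every alternative run.

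Over all genes, 834 passed for YAP siRNA against nonsense siRNA, 569 for YAP siRNA against untreated cells and 113 for nonsense siRNA against untreated cells. With all probe sets tested the counts were 351, 183 and 0 (3032 at an unadjusted p under 0.05), at an adjusted p under 0.01 they were 396, 250 and 11, and without the 3 arrays 1287, 1560 and 2319. With 1 array left out they ranged from 426 to 1231, from 279 to 775 and from 11 to 1470. The first count moved by over 1.5 times without nonsense siRNA replicate 1 or 3 or YAP siRNA replicate 1 or 2, the second without YAP siRNA replicate 1 or 2 or untreated replicate 1 or 2, and the third whichever array was left out. The count for nonsense siRNA against untreated cells was 49 with array medians equalised and 67 with the 6 arrays. Quantile normalization moved the share of higher genes from 42.4% to 53.0% for YAP siRNA against nonsense siRNA, and equalised medians moved it from 52.7% to 65.9% and from 54.9% to 65.3% in the other comparisons. Neither shifted the median of all genes by over 0.1.

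Titles share replicate numbers, but same-numbered arrays did not deviate together (r from -0.34 to 0.34), so the numbers were not taken as pairs. With the replicate block 65 genes passed between nonsense siRNA and untreated cells, SLC27A2 was lost and AHSG gained against untreated cells after YAP siRNA (adjusted p = 0.0612 and 0.0469), while other calls of members and list genes held. The YAP1 check without the 3 arrays gave -1.16 (exact permutation p = 0.0667, the smallest possible there), and -1.20 to -1.17 with 1 array left out. The small number of arrays and the dim signal of 4 members limit what could be seen.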
